A study of Mus musculus with 24 samples.

Results

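Pulmonary surfactant genes and the genes that equip alveolar type 2 cells to make surfactant were followed across 24 Affymetrix arrays of mouse lung RNA. Members were taken by symbol from a list of 9 genes: Sftpa1, Sftpb, Sftpc, Sftpd, Abca3, Lamp3, Napsa, Lpcat1 and Slc34a2. A probe set, the group of short probes that reads one transcript, was kept when its annotation named exactly 1 gene and that gene was on the list. This gave 14 probe sets of 8 genes among 22626 probe sets. The only probe set that names Lamp3 also names Ppid, so Lamp3 has no value here. Of the 14 probe sets, 13 had a mean signal above the limit of 138 used for testing. The probe set left out, 1438290_x_at of Sftpc, read between 10.9 and 289.

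The arrays came from 6 groups of 4. Mice inhaled filtered air, diesel exhaust at 500 ug/m3 (DE 500) or diesel exhaust at 2000 ug/m3 (DE 2000), in daily sessions of 4 h over 5 days. At each exposure, 1 group was given 100 ug of ovalbumin (OVA), a protein used as an allergen in mice, for 3 days. Another group at the same exposure was the saline control. Frozen lung was extracted, so every value describes the whole organ. Strain, sex and age of the mice and the route of ovalbumin are not given in the sources used here. Nor do the labels tie each array to a mouse of its own, and p-values therefore measure only the spread between these samples.

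Surfactant is a film of phospholipid and protein that lowers surface tension in the alveoli. Type 2 cells assemble it in lamellar bodies, lysosome-related organelles, and secrete it. Sftpb and Sftpc are small hydrophobic proteins that spread the lipid film, while Sftpa1 and Sftpd are collectins that bind microbes and allergens. Abca3 pumps phospholipid into the lamellar body, Lpcat1 remakes the dipalmitoyl phosphatidylcholine of the film, Napsa is an aspartic protease that helps trim the Sftpb precursor, Lamp3 is a lamellar body membrane protein and Slc34a2 recovers phosphate from the alveolar lining.

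The bases just before the transcription start are shown for 3 members, Sftpb and Sftpa1, which hold the core motif of NKX2-1, the homeodomain factor known for driving surfactant genes, and Lpcat1, which does not and whose brightest probe set was called between the ovalbumin and saline arms under every setting run. Each run is the 250 bases before the start, 5′ to 3′ on the plus strand, from which all 3 genes are read, taken from RefSeq on GRCm38.p6, and capitals mark the motif CTCAAG. Of the 9 listed genes, 6 matched this promoter table.
Sftpb (chr6:72304360-72304609): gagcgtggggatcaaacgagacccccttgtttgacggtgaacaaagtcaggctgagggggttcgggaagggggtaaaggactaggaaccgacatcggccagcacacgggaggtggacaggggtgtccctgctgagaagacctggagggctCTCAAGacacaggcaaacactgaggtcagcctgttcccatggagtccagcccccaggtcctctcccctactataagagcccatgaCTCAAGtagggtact
Sftpa1 (chr14:41131538-41131787): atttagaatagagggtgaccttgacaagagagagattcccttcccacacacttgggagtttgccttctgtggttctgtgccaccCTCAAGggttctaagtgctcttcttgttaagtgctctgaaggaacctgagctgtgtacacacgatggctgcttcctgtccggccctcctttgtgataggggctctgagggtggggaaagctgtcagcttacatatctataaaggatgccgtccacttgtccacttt
Lpcat1 (chr13:73466981-73467230): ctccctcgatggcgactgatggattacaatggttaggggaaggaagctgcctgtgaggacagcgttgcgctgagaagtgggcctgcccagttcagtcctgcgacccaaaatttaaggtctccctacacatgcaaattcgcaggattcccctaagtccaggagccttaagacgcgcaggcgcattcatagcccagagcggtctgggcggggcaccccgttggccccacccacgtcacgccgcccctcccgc

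The motif CTCAAG was searched on both strands and lay in 13.3% of 32851 promoter windows of this length. Sftpb held it at 100 to 95 and again at 15 to 10 bases before the start, and Sftpa1 held it at 166 to 161. The FOXA motif TGTTTAC, found in 3.17% of windows, lay in Lamp3, and the C/EBP motif TTGCNNAA, found in 9.56% of windows, lay in Slc34a2 as TTGCGCAA. The windows of Lpcat1 and Abca3 held none of the 3 motifs. These matches describe letters in a window and no binding was measured.

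Several of these genes sat at the top of the signal range of every array. The Sftpc probe set 1418639_at ranked between 1 and 4 among all probe sets on each of the 24 arrays and was the brightest on 2 of them. Sftpa1 (1422334_a_at) ranked between 4 and 27, Sftpd between 24 and 91, Slc34a2 between 29 and 107 and Sftpb between 37 and 203. By mean signal, 7 of the 14 probe sets were in the brightest 1% of the array (above 7993) and 10 were in the brightest 5% (above 2490). Such ranks are positions on the array and do not give relative RNA amounts, since each probe set has its own response. Whether the probes were saturated on the scanner was not tested.

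Arrays had been scaled to a trimmed mean of 500, so a shift shared by bright probe sets would reach most members at once. For ovalbumin averaged over exposures and for exhaust the members are therefore set beside the 227 brightest probe sets, the top 1%, and beside a quantile-normalized version, which gives every array the same distribution of signals. Of those 227, 7 are member probe sets, so the brightest set is not independent of the members. Differences are on the log2 scale, ± standard error (SE), and a probe set was called at an adjusted p below 0.05 in limma. The words rose and fell are kept for called differences.

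The arms also differed in a measure of RNA and labelling quality. The ratio of signal at the 3′ end to signal at the 5′ end of the Gapdh and actin control transcripts is higher where RNA is degraded or cDNA stops short. Its log2 mean over both transcripts was 1.84 ± 1.28 (SD, n = 12) on saline arrays and 0.21 ± 0.58 on OVA arrays, OVA minus saline being -1.63 (two-sided exact permutation test with exposures kept apart, p = 0.000262, adjusted over 4 measures 0.000350). The control for B1, a repeat element found in introns and unprocessed RNA, gave -1.43 for OVA minus saline (two-sided exact permutation test, p = 5.83e-06, the least value the design allows, adjusted 2.33e-05). DE 500 saline replicates 1 and 4 had ratios of 4.38 and 3.77, while replicates 2 and 3, at 0.33 and 0.10, lay close to the OVA arrays. DE 2000 OVA replicate 4, at 2.02, lay among the saline arrays, and the other OVA arrays were between -0.13 and 0.20. The B1 values hardly overlapped between the arms: saline arrays lay between 12.1 and 13.8, DE 2000 OVA replicate 4 at 12.4 and the other OVA arrays between 10.9 and 11.9. The ovalbumin comparison is given below with each measure as a covariate; with B1 the SE of Lpcat1 1424459_at went from 0.066 to 0.12.

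Ovalbumin against saline was the comparison in which members moved. Averaged over the 3 exposures, with 12 arrays in each arm, 9 of 13 member probe sets were called, 3 higher with ovalbumin and 6 lower, 1 of the latter (Abca3 1451869_at) having passed the limit only through its saline signals. Over all tested probe sets 46.3% were called, 22.7% higher and 23.6% lower. Most probe sets that differed were thus not members, and the share among the members can be read only against that background. Lpcat1 and Abca3 each account for several of the called probe sets. With 1 probe set for each gene, its brightest, 4 of 8 member genes were called, against 43.6% of 8315 genes. The median of the 13 was -0.16, against -0.011 for all tested probe sets and -0.16 for the 227 brightest, which include 7 member probe sets. Of the 227, 110 were called. For a member that was lower, whole lung cannot tell fewer type 2 cells from less RNA per type 2 cell, and neither was tested.

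**Figure D1:**
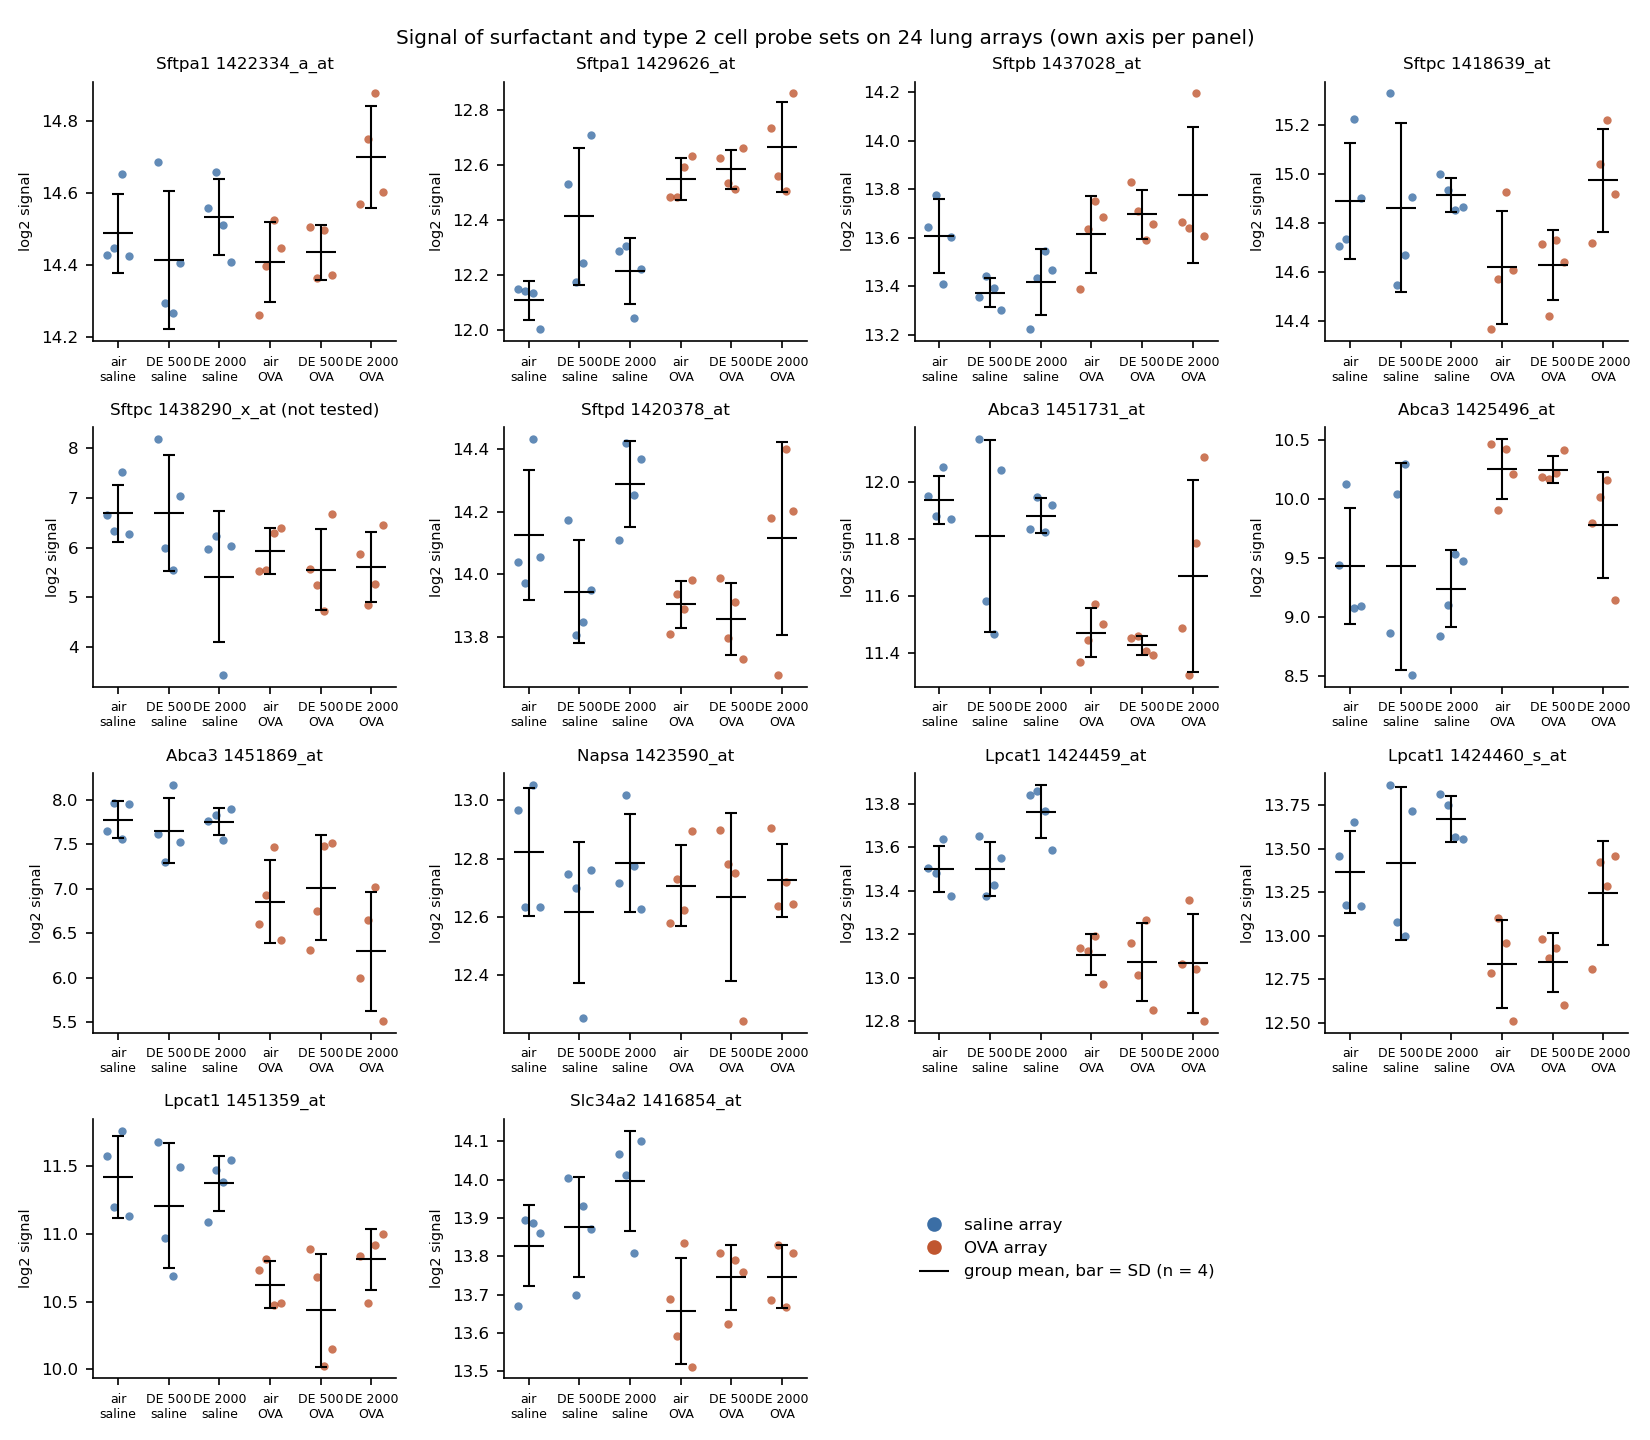
Log2 signal of each of the 14 probe sets on the 24 arrays, by group; points are arrays, the horizontal line is the group mean and the bar its SD (n = 4), and each panel has its own axis. Lpcat1 1424459_at is lower on all 12 OVA arrays (7145 to 10494) than on all 12 saline arrays (10625 to 14850), while the Sftpc, Sftpd and Napsa points of both arms overlap.

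Among the surfactant proteins, Sftpa1 was read by a pair of probe sets that differed from each other. Probe set 1429626_at read 4539, 4513, 4495 and 4099 in air saline and 5729, 5726, 6173 and 6349 in air OVA. In DE 2000 saline it read 4993, 5054, 4218 and 4771, against 6815, 6030.1, 5809 and 7440.3 in DE 2000 OVA. The OVA arrays were higher without overlap at both exposures. The share of all tested probe sets that separate in this way with 4 arrays in each group was not counted. In DE 500 saline, replicates 1 and 4, the arrays with the highest 3′/5′ ratios, read 5909.5 and 6691, inside the range of DE 500 OVA (5848 to 6474) or above it.

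Over the 3 exposures, Sftpa1 1429626_at rose by 0.35 ± 0.06 (1.28-fold, adjusted p = 0.000138). It stayed called under the 34 settings run, between 0.28 and 0.62. The brighter probe set, 1422334_a_at, gave 0.036 ± 0.059 (adjusted p = 0.641), with a 95% interval from -0.085 to 0.16, below that of 1429626_at, 0.22 to 0.49. It was called only after quantile normalization, at 0.18 (adjusted p = 0.00211).

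Sftpb read a median of 11099 (9560 to 14041) over the saline arrays and 12950 (10710 to 18747) over the OVA arrays. The arms overlapped, and Sftpb rose by 0.23 ± 0.07 (1.17-fold, adjusted p = 0.00992). By exposure the difference was 0.0066 ± 0.12 in air, 0.32 ± 0.12 in DE 500 (adjusted p = 0.0748) and 0.36 ± 0.12 in DE 2000 (adjusted p = 0.0412). The call in DE 2000 rested on single arrays: without DE 2000 OVA replicate 3, which read 18747, the difference was 0.22 (adjusted p = 0.176), and without DE 2000 saline replicate 1, 2 or 4 it was 0.29, 0.36 or 0.38 (adjusted p = 0.133, 0.0679 and 0.0647). Averaged over exposures it was 0.14 (adjusted p = 0.296) with the 3′/5′ covariate, 0.0063 (adjusted p = 0.986) with the B1 covariate and 0.16 (adjusted p = 0.0948) after median scaling.

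The remaining surfactant proteins did not pass. Sftpc (1418639_at) read a median of 30234 (23980 to 41213) on saline arrays and 26927 (21129 to 38186) on OVA arrays, a difference of -0.15 ± 0.09 (adjusted p = 0.172, 95% interval -0.33 to 0.034). Quantile normalization brought it to 0.022. Sftpd read 17348 (14296 to 22121) and 15537 (13094 to 21646), a difference of -0.16 ± 0.08 (adjusted p = 0.0873, interval -0.32 to -0.0034), and -0.011 after quantile normalization. That normalization fixes the top of the distribution on every array, and Sftpc is at the top.

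Lpcat1 gave the clearest difference of the set. Probe set 1424459_at read 11636, 11430, 12728 and 10642 in air saline. The DE 500 saline arrays read 12870, 10625, 11020 and 11990, and the DE 2000 saline arrays 14661, 14850, 13926 and 12315. With ovalbumin it read 9000.4, 8921, 9355 and 8042 in air, then 9138, 8272, 9852 and 7398 in DE 500, and 8563, 10494, 8429 and 7145 in DE 2000. Every OVA array was lower than every saline array. Only 1.77% of tested probe sets, 240 in number, separated the arms in this way, and no other member did.

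Lpcat1 1424459_at fell by 0.51 ± 0.07 on the log2 scale (0.70-fold, adjusted p = 4.58e-06). The arrays whose 3′/5′ ratios resembled the opposite arm stayed on the side of their own. DE 2000 OVA replicate 4 read 7145, the lowest of all 24, and DE 500 saline replicates 2 and 3 read 10625 and 11020. The reading of 10625 was the lowest of the saline arrays, next to the highest OVA signal of 10494. With the ratio as covariate the difference was -0.47 (adjusted p = 0.000437) and with B1 it was -0.50 (adjusted p = 0.0197). The 34 settings run all kept the call, between -0.58 and -0.38.

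The second Lpcat1 probe set, 1424460_s_at, fell by 0.51 ± 0.11 (adjusted p = 0.000552), and the dimmest, 1451359_at, fell by 0.71 ± 0.12 (adjusted p = 8.44e-05). Their medians were 12090 (8197 to 14956) against 7874 (5833 to 11256) and 2759 (1647 to 3479) against 1671 (1041 to 2048), with overlap in both. Here the arrays apart in ratio did cross: on 1424460_s_at DE 2000 OVA replicate 4 read 11256, above DE 500 saline replicates 2 and 3 at 8651 and 8197. Its difference was -0.19 (adjusted p = 0.194) with the 3′/5′ covariate and -0.0088 (adjusted p = 0.985) with B1. For 1451359_at the values were -0.40 (adjusted p = 0.0343) and -0.29 (adjusted p = 0.458). The 3 probe sets of Lpcat1 thus fell together on the deposited scale, and 1 of them kept the call with the B1 covariate.

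Abca3 was read by 3 probe sets that did not move together. The brightest, 1451731_at, read a median of 3819 (2834 to 4543) on saline arrays and 2812 (2565 to 4349) on OVA arrays and fell by 0.35 ± 0.08 (0.78-fold, adjusted p = 0.00163). Probe set 1425496_at read 622 (364 to 1254) and 1157 (567 to 1415) and rose by 0.72 ± 0.18 (1.65-fold, adjusted p = 0.00242). The dimmest, 1451869_at, read 208 (158 to 287) and 104 (45.9 to 182) and fell by 1.01 ± 0.18 (0.50-fold, adjusted p = 0.000123). No single direction can be given for Abca3 from these values.

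On the arrays whose 3′/5′ ratio resembled the opposite arm, both brighter Abca3 probe sets read like that arm. On 1451731_at DE 2000 OVA replicate 4 read 4349, and DE 500 saline replicates 2 and 3 read 3068 and 2834. On 1425496_at the same arrays read 567, 1055 and 1254. With the 3′/5′ covariate the differences were -0.090 (adjusted p = 0.442) and 0.088 (adjusted p = 0.718), and with B1 both turned, to 0.072 (adjusted p = 0.785) and -0.32 (adjusted p = 0.436). The dimmest probe set read 45.9 on DE 2000 OVA replicate 4, its lowest value. It passed the limit of 138 only through the saline arm, with a geometric mean of 212 there and 106 on OVA arrays, where 9 of 12 signals, and all 4 of DE 2000, lay below the limit. Its difference, between -1.34 and -0.73 over 33 settings, therefore sets a measured signal against one too low to have been tested, and it supports no statement on Abca3.

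**Figure D2:**
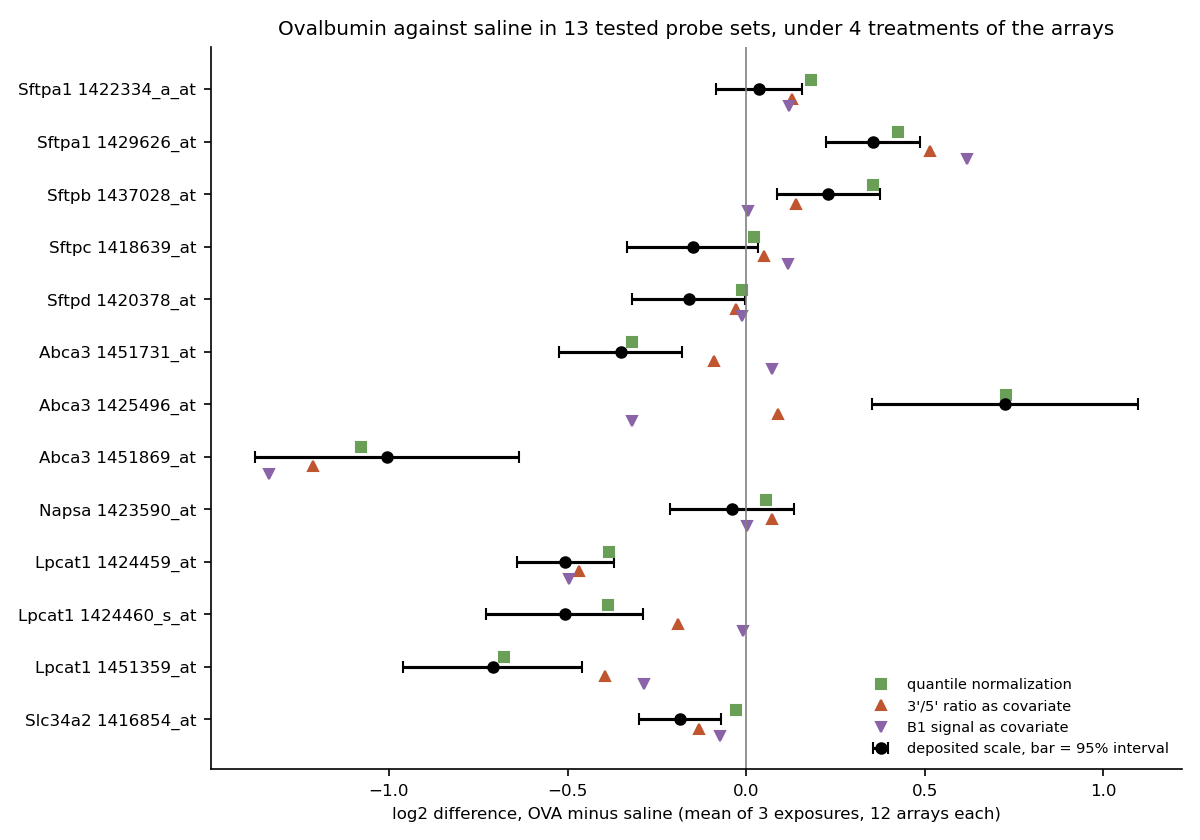
Log2 difference of ovalbumin minus saline, averaged over 3 exposures, for the 13 tested probe sets; black points are the values on the deposited scale with 95% intervals and coloured symbols are the same difference after quantile normalization or with a covariate. Over the 34 settings run, not all of them drawn, Lpcat1 1424459_at stays between -0.58 and -0.38 and Sftpa1 1429626_at between 0.28 and 0.62. Abca3 1451731_at and 1425496_at cross 0 with the B1 covariate.

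Napsa read 6799 (4881 to 8503) on saline arrays and 6768 (4846 to 7672) on OVA arrays, a difference of -0.040 ± 0.084 (adjusted p = 0.720, interval -0.21 to 0.13). Slc34a2 fell by 0.18 ± 0.06 (0.88-fold, adjusted p = 0.00947), from a median of 15192 (13035 to 17570) on saline arrays to 13537 (11682 to 14612) on OVA arrays. It read -0.029 (adjusted p = 0.722) after quantile normalization, -0.13 (adjusted p = 0.205) with the 3′/5′ covariate and -0.072 (adjusted p = 0.746) with B1.

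By exposure, 5 of 13 members were called for ovalbumin in air (1 higher, 4 lower) against 14.8% of all tested probe sets. In DE 500 the count was 3, all lower and all of Lpcat1, against 12.5%. In DE 2000 it was 4 (2 higher, 2 lower) against 18.1%. With 1 probe set for each gene the counts were 2, 1 and 2 of 8, against 13.1%, 10.8% and 17.0% of all genes. Lpcat1 1424459_at was called in each, with differences of -0.39 ± 0.11 in air, -0.43 ± 0.11 in DE 500 and -0.70 ± 0.11 in DE 2000 (adjusted p = 0.0261, 0.0207 and 0.000268). Sftpa1 1429626_at was called in air (0.44 ± 0.11) and DE 2000 (0.45 ± 0.11), and read 0.17 ± 0.11 in DE 500 (adjusted p = 0.293). Abca3 1451869_at was called in air (-0.92 ± 0.31, adjusted p = 0.0476) and DE 2000 (-1.46 ± 0.31, adjusted p = 0.00262). Its OVA signals lay mostly below the limit, and its call in air was lost without any 1 of 13 arrays, at differences of -0.99 to -0.78 (adjusted p from 0.0501 to 0.134).

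The calls within 1 exposure depended on the processing and on few arrays. For Lpcat1 1424459_at in air the call was lost after quantile normalization (-0.21, adjusted p = 0.212), with no filter (adjusted p = 0.0503) and with the 3′/5′ or B1 covariate (-0.35 and -0.39, adjusted p = 0.125 and 0.293). In DE 500 it was lost after quantile normalization (-0.30, adjusted p = 0.0810), with only the compared groups fitted (adjusted p = 0.107), with either covariate (-0.38 and -0.42, adjusted p = 0.168 and 0.261) and without the 3 arrays apart in ratio (-0.33, adjusted p = 0.253). The call in DE 2000 was kept under the 35 settings run. With single arrays left out, for Lpcat1 1424459_at in air the difference lay between -0.40 and -0.35 without air saline replicate 1 or 3 or air OVA replicate 1 or 4 (adjusted p from 0.0570 to 0.0992), and in DE 500 between -0.41 and -0.36 without DE 500 saline replicate 1 or 4 or DE 500 OVA replicate 2 or 4 (adjusted p from 0.0546 to 0.0899). In air the count of members fell to 1 without air saline replicate 1 or 3 or air OVA replicate 4, and to 2 without air OVA replicate 1. In DE 500 it was 0 without DE 500 saline replicate 1 or 4 or DE 500 OVA replicate 4, 1 without DE 500 OVA replicate 2 or 3, and 5 without DE 500 saline replicate 2 or 3. Leaving out the 3 arrays apart in 3′/5′ ratio gave 0 members in DE 500 and 9 in DE 2000. Calls over all tested probe sets moved the same way, from 1693 to 94 in DE 500 and from 2454 to 4418 in DE 2000. The count of members over the mean of the exposures stayed at 9 or 10 whichever single array was left out.

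Within the 12 saline arrays alone, where no ovalbumin was given, the signals were set against the 3′/5′ ratio. Of 14 relations computed, 8 had an adjusted p below 0.05 in a permutation test of Pearson's r, 1 of them of Sftpc 1438290_x_at, which lay below the limit for testing. Values were permuted over all 12 arrays, without keeping the exposures apart. In the same test of the rank correlation rho, Sftpa1 1422334_a_at and 1429626_at did not pass (adjusted p = 0.096 and 0.172). The smallest r of the 8 was 0.645 in size, which 7 of the 13 tested members reached and 30.6% of all tested probe sets. Following the ratio was thus common on these arrays. Abca3 1451731_at rose with the ratio (r = 0.87, permutation p = 0.00067, adjusted 0.00532, rho = 0.86, permutation p = 0.00071) and Abca3 1425496_at ran against it (r = -0.83, permutation p = 0.00087, adjusted 0.00532, rho = -0.91, permutation p = 0.00013). Sftpc gave r = 0.83 (permutation p = 0.0015, adjusted 0.00532, rho = 0.83, permutation p = 0.00133) and Lpcat1 1424460_s_at r = 0.80 (permutation p = 0.00152, adjusted 0.00532, rho = 0.85, permutation p = 0.00084). Without the 2 arrays farthest from the median ratio, DE 500 saline replicates 1 and 4, r was 0.88, -0.83, 0.89 and 0.80 over 10 arrays. Among members that had not passed, Sftpd went from 0.34 to 0.77 and Napsa from 0.45 to 0.75 without them. Sftpb went from -0.43 to -0.19, Abca3 1451869_at from -0.37 to -0.23 and Slc34a2 from 0.26 to 0.24. No p was computed over the 10 arrays.

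Lpcat1 1424459_at gave r = 0.35 (permutation p = 0.261, adjusted 0.295; 0.55 without those arrays; rho = 0.55, permutation p = 0.0666). Sftpa1 1429626_at gave 0.69 (permutation p = 0.0154, adjusted 0.0359, rho = 0.45, permutation p = 0.141), which became -0.025 without the same arrays and so rests on them. Within single exposure groups of 4 arrays no such relation can be tested.

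**Figure D3:**
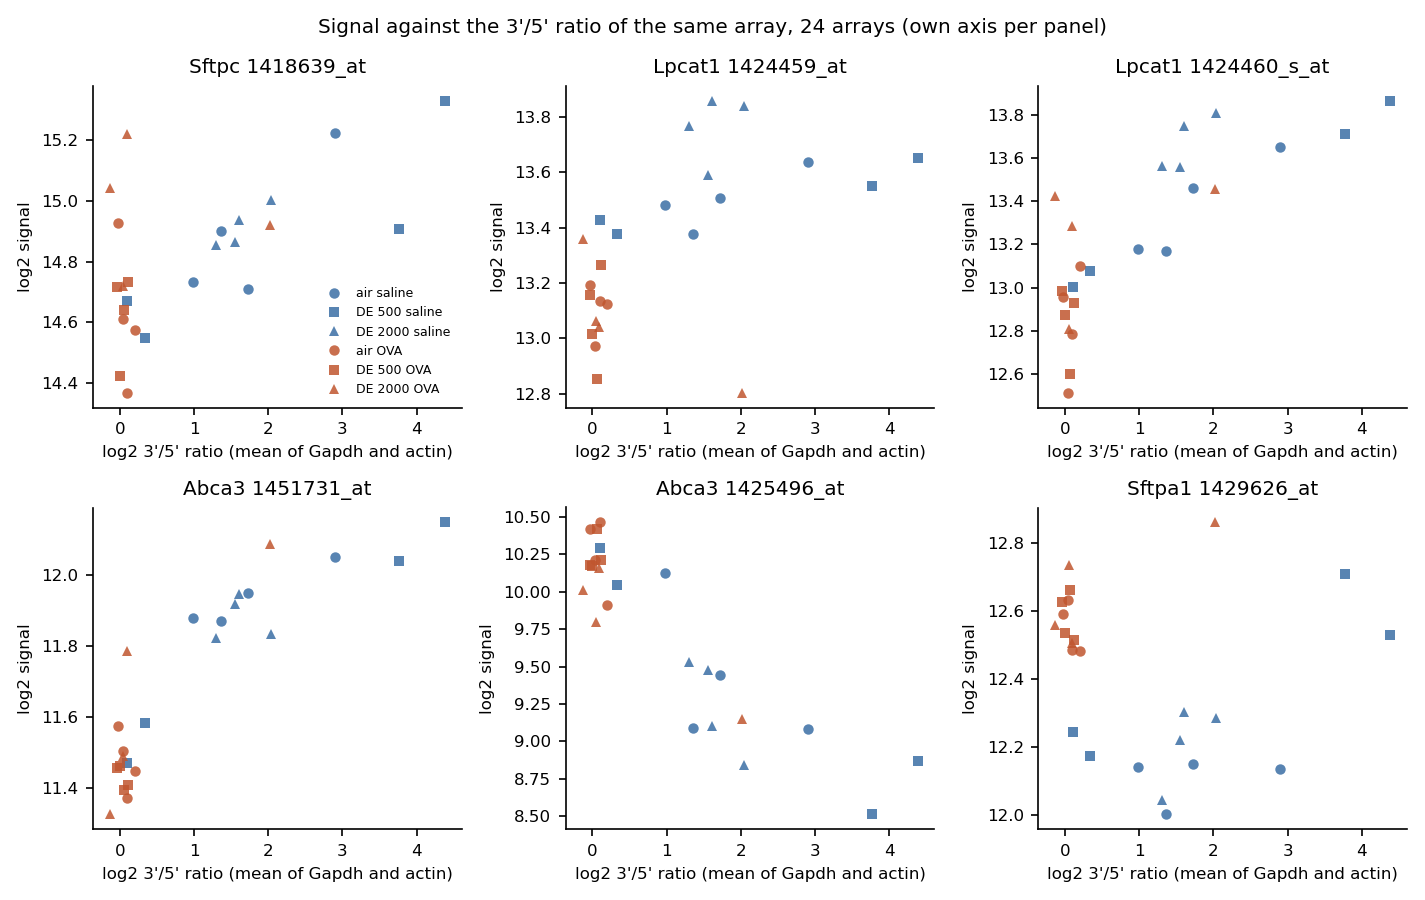
Log2 signal of 6 member probe sets against the mean log2 3′/5′ ratio of Gapdh and actin on the same array, 24 arrays, blue for saline and orange for OVA, shapes for exposures. On Abca3 1451731_at and 1425496_at the DE 2000 OVA array at a ratio of 2.02 lies with the saline arrays, and on Lpcat1 1424459_at it is the lowest of all arrays at 7145.

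The genes around the members were described from lists, each gene by its brightest probe set, and Etv5 stands on 2 of them. Over 8315 genes 43.6% were called for ovalbumin over the mean of the exposures, with 12.9% left with the 3′/5′ covariate and 3.07% with B1. Of 22 tested markers of type 2 cells other than the members, 6 rose, 6 fell and 10 did not pass (median -0.0046, against -0.027 for all genes). Etv5, a transcription factor of type 2 cell upkeep, rose by 1.55 ± 0.27 (adjusted p = 8.87e-05). The chemokine Cxcl15 and the lysosomal protease Ctsc rose by 0.42 and 0.36. Hc, complement component C5, fell by 0.47 ± 0.08 (adjusted p = 6.90e-05). With the 3′/5′ covariate these 4 were still called, Etv5 at 0.67. With B1 they were not, with adjusted p from 0.120 for Ctsc to 0.888 for Etv5, which read -0.10.

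Phospholipid and fatty acid synthesis, which supplies the surfactant lipid, had 4 genes higher and 7 lower of 23 tested (median 0.015). Choline kinases open the choline branch of phosphatidylcholine synthesis, and both fell without overlap of the arms: Chkb by 0.83 ± 0.09 (adjusted p = 6.57e-07) and Chka by 0.71 ± 0.08 (adjusted p = 7.84e-07). Pcyt2, of the ethanolamine branch, fell by 1.15 ± 0.22 (adjusted p = 0.000258), and Chpt1, which makes phosphatidylcholine from CDP-choline, rose by 0.70 ± 0.11 (adjusted p = 2.45e-05). Chka and Chkb remained called with the 3′/5′ covariate (-0.65 and -0.69) and with B1 (-0.55 for both, adjusted p = 0.0298 and 0.0478). Chpt1 kept the call with the ratio (0.43) and not with B1 (adjusted p = 0.310), and Pcyt2 was at adjusted p = 0.0516 and 0.376.

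A list of transcription factors of lung development, all but Tcf21 of epithelium, had 7 genes higher and 2 lower of 13 tested (median 0.34). Stat3, the cytokine-responsive factor, fell by 0.61 ± 0.06 (adjusted p = 9.33e-08) without overlap and was -0.61 with the ratio and -0.59 with B1 (adjusted p = 0.00356). Grhl2, an epithelial factor, fell by 0.66 ± 0.08 (adjusted p = 2.40e-06), and Tcf21, a factor of lung mesenchyme counted among the 7, rose by 0.62 ± 0.11 (adjusted p = 7.65e-05). Those were at adjusted p = 0.129 and 0.333 with B1. With that covariate the list's median was -0.019 and 1 gene, Stat3, was called. Nkx2-1 itself lay below the limit for testing.

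In lamellar body and lysosome trafficking 3 rose and 6 fell of 15 tested (median -0.13). The vesicle fusion protein Vamp2 fell by 0.91 ± 0.10 (adjusted p = 9.91e-07) without overlap, Ap3d1 of the AP-3 sorting complex fell by 0.38, the fusion protein Snap23 rose by 1.11 and cathepsin Ctsl rose by 0.40. With the 3′/5′ covariate 2 of the list were called, Vamp2 (-0.66) and Ap3d1 (-0.34), and with B1 the lowest adjusted p of the 4 named genes was 0.126, for Vamp2 (-0.41). Of 11 genes by which macrophages take up and clear surfactant, Csf2rb2, a receptor subunit, rose by 0.30 and the lipid exporter Abcg1 fell by 0.36. Neither call held with the 3′/5′ covariate (adjusted p = 0.364 and 0.504) or with B1 (adjusted p = 0.548 and 0.791), and that of Csf2rb2 was also lost after quantile normalization (adjusted p = 0.096).

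Markers of other lung cells were called as well on the deposited scale, and their part in the members' differences was not tested. Called higher and lower with ovalbumin were 2 and 2 of 10 type 1 cell markers, 1 and 1 of 10 for club cells, 0 and 0 of 4 for ciliated cells (limma, 0 below 0.05 unadjusted), 1 and 0 of 9 for alveolar macrophages, 0 and 2 of 9 for neutrophils, 4 and 5 of 12 for endothelium and 3 and 2 of 12 for fibroblasts and smooth muscle. Over these lists together, 11 rose and 12 fell of 66 tested, which became 4 and 4 with the 3′/5′ covariate and 0 and 2 with B1. The shares called over all genes were 43.6%, 12.9% and 3.07% in the same order, and the counts can be read only against them. Endothelium then had 1 higher and 2 lower with the ratio and 0 and 1 with B1, and fibroblasts 1 and 1, then 0 and 0. Summed signals of the endothelial list ranged from 56975 to 74347 in the saline groups and from 52601 to 60390 in the OVA groups. Those of type 1 cells ranged from 52456 to 67995 and from 53348 to 70340. Marco and Siglecf of alveolar macrophages lay below the limit. The lung's defining markers Sftpc, Scgb1a1 of club cells and Ager of type 1 cells all passed the limit.

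No member was called for diesel exhaust, which does not exclude small changes. On simulated data the fit recovered 0% of 1.25-fold and 30% of 1.5-fold changes for DE 2000 against air in saline. Those changes were placed in probe sets drawn at random from all tested ones, so the shares are not specific to the members. For DE 2000 against air in saline, 0 of 13 members were called in limma against 0.147% of all tested probe sets, and 1 member had an unadjusted p below 0.05. For DE 500 against air in saline the count was 0 against 0.00737%, with 1 below 0.05 unadjusted. For DE 2000 against air in OVA it was 0 against 0.0221%, with 3 below, and for DE 500 against air in OVA 0 against 0%, with 0 below. Half-widths of the 95% intervals ran from 0.20 for Slc34a2 to 0.64 for Abca3 1425496_at.

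In saline, Lpcat1 1424459_at read 14661, 14850, 13926 and 12315 with DE 2000 and 11636, 11430, 12728 and 10642 in air. One DE 2000 array lay inside the air range, and the difference was 0.26 ± 0.11 (adjusted p = 0.746, interval 0.028 to 0.50). Sftpc differed by 0.022 ± 0.15, Sftpa1 1422334_a_at by 0.045 ± 0.10, Sftpd by 0.16 ± 0.13, Slc34a2 by 0.17 ± 0.10 and Sftpb by -0.19 ± 0.12. The median of the members was 0.022. Neutrophil markers summed to between 8235 and 13610 with DE 2000 and to between 4540 and 6925 in air, and 1 of 9, the surface glycoprotein Cd177, rose.

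With DE 500 in saline, Sftpa1 1429626_at read 5909.5, 4620, 4845 and 6691 against 4099 to 4539 in air. The difference was 0.31 ± 0.11 (adjusted p = 0.412). Leaving out DE 500 saline replicates 1 and 4 and DE 2000 OVA replicate 4 brought it to 0.10 (adjusted p = 0.569). Abca3 1451731_at gave -0.13 ± 0.14 (adjusted p = 0.912) and became called without the same arrays, at -0.41 (adjusted p = 0.0276), with the 2 arrays of low ratio left in that group. In that fit calls over all 13575 tested probe sets went from 1 to 1283, so the call is not particular to Abca3.

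In ovalbumin-treated mice, Sftpa1 1422334_a_at read 24325, 27543, 30084 and 24875 with DE 2000 and 19656, 21600, 23587 and 22362 in air. The difference was 0.29 ± 0.10 (adjusted p = 0.549). Sftpc read 26951, 33737, 38186 and 30990 against 21129, 24384, 31161 and 25021, with overlap, a difference of 0.36 ± 0.15 (adjusted p = 0.593). Lpcat1 1424460_s_at differed by 0.41 ± 0.18 (adjusted p = 0.601), Sftpd by 0.21 ± 0.13 and Sftpb by 0.16 ± 0.12. Of the 13 members 10 lay above 0 (median 0.16, against -0.038 for all tested probe sets).

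Bright probe sets at large leaned the same way. Of the 227 brightest, which include 7 member probe sets, 216 lay above 0 in the same comparison, with a median of 0.24. After quantile normalization 3 of 13 members lay above 0, their median was -0.040, Sftpa1 1422334_a_at read -0.022 and Sftpc -0.012. With the 3′/5′ covariate Sftpa1 1422334_a_at read 0.27 (adjusted p = 0.304), and 9 of 13 members lay above 0. With B1 as covariate 2 members became called, Lpcat1 1424460_s_at (0.53, adjusted p = 0.0282) and Abca3 1425496_at (-0.73, adjusted p = 0.0307), while calls over all probe sets went from 3 to 971.

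**Figure D4:**
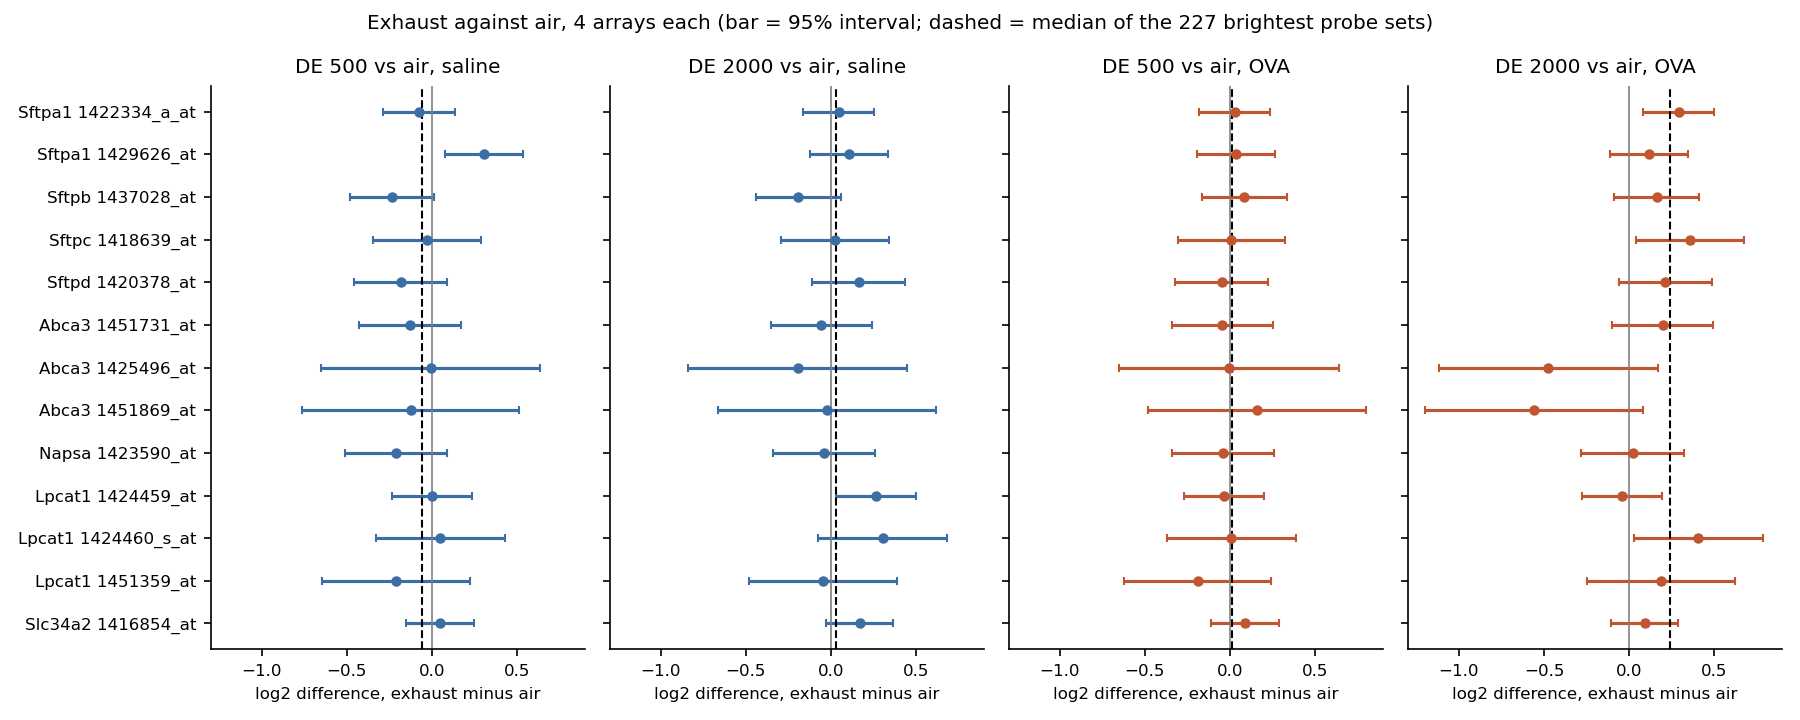
Log2 difference of exhaust minus air for the 13 tested probe sets in each arm and dose, 4 arrays against 4; bars are 95% intervals and the dashed line is the median of the 227 brightest probe sets. With DE 2000 in OVA the dashed line sits at 0.24 and the surfactant proteins lie around it, while in the other panels it lies between -0.055 and 0.032.

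With DE 500 in OVA the 13 members lay between -0.19 (Lpcat1 1451359_at) and 0.16 (Abca3 1451869_at), with a median of 0.0080. Sftpa1 1422334_a_at read 23254, 21115, 23134 and 21227 and Sftpc 26903, 21954, 27243 and 25567, both overlapping the air OVA arrays. Their differences were 0.027 ± 0.10 and 0.0086 ± 0.15 (adjusted p = 0.9998 for both).

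Averages and interactions added no call. Over saline and OVA together, DE 2000 against air called 0 of 13 members in limma (2 below 0.05 unadjusted) against 0.0884% of all tested probe sets, and DE 500 called 0 (1 below) against 0%. The interaction of ovalbumin with DE 2000 called 0 (1 below) against 0%, and that with DE 500 0 (0 below) against 0%. Lpcat1 1424459_at gave an interaction with DE 2000 of -0.30 ± 0.16 (adjusted p = 0.873), so its larger difference in DE 2000 was not shown to differ from that in air. Sftpb gave 0.35 ± 0.17 (adjusted p = 0.818) and Sftpc 0.33 ± 0.22 (adjusted p = 0.917).

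Over the other type 2 markers, lipid synthesis, transcription factors, trafficking and macrophage uptake lists, 84 entries in all, limma called 0 in each of the 4 exhaust comparisons. Those below 0.05 unadjusted numbered 6 for DE 2000 in saline, 11 for DE 500 in saline, 7 for DE 2000 in OVA and 0 for DE 500 in OVA. The type 2 marker nearest to a call with DE 2000 in OVA was Chil1, a chitinase-like protein, at 0.47 ± 0.13 (adjusted p = 0.492). Lyz2, Npc2 and Cd74 gave 0.32, 0.35 and 0.25. In saline it was Atp8a1, a phospholipid flippase, at 1.22 ± 0.30 with DE 2000 (adjusted p = 0.125) and 1.51 ± 0.30 with DE 500 (adjusted p = 0.0658).

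How the members varied together was described on the 24 arrays after the group means were removed, with 1 probe set for each of the 8 genes. Arrays share their own scaling and RNA quality, so these values carry no test. Of 28 pairs 22 had r above 0, with a median of 0.29. The closest pair was Sftpa1 and Sftpc (r = 0.90), followed by Sftpd and Abca3 (r = 0.65), and the lowest was Napsa and Slc34a2 (r = -0.32). Sftpb stood apart from its fellow hydrophobic protein Sftpc, at r = 0.097.

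Among 8307 other genes, those most like the members' mean by the same measure were Cbr2, a carbonyl reductase of club cells (r = 0.88), Actg1 (0.85), the ribosomal genes Rps29 (0.85), Rpl41 (0.84), Rplp2 (0.84) and Rps3a1 (0.83), Crip1 (0.83) and Npc2 (0.83), over 24 arrays. Without removal of the group means the same genes gave r between 0.83 and 0.89.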

How the data were processed

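The authors deposited MAS5 intensity values on a linear scale, 1 for each probe set on each of 24 arrays, per the submitters' processing notes, which give no version. Every array had a trimmed mean near 500 and a median between 182 and 243. After 64 controls were set aside, 22626 probe sets remained, of which the annotation names 1 gene for 20380, several for 691 and none for 1555.

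Log2 intensities of the 13575 probe sets with a mean above the 40th percentile were fitted with 1 mean for each group in limma 3.58.1 (R 4.3.3; eBayes with trend). P-values were adjusted by Benjamini-Hochberg over those probe sets in each of 12 comparisons. Permutation tests and correlations were run in Python 3.11.15 with 100000 resamples, or exactly for the comparison of arms. The number of arrays limits the precision. The members and gene lists were chosen with earlier results of these data known. All members are named, with up to 4 genes of a list by smallest p and the 8 genes most like the mean of the members. Alternatives were quantile normalization, median scaling, no filter or one at the 60th percentile, a pseudocount of 50, a fit of the compared groups only, array weights, the 3′/5′ ratio or B1 signal as covariate, a replicate block and leaving out each array. Leaving out the 3 arrays apart in 3′/5′ ratio was added after the data had been seen. Arrays of the same number showed no pairing (60 pairs, mean residual r 0.027, from -0.43 to 0.59). Before use the fit was tried on simulated data. Changes were placed in randomly drawn probe sets, with all others unchanged and noise independent between probe sets, unlike arrays that share scaling and RNA quality. For DE 2000 against air in saline it recovered 0% of 1.25-fold changes, 30% of 1.5-fold, 66% of 2-fold and 92% of 3-fold ones. For ovalbumin over the mean of the exposures the shares were 34%, 72%, 92% and 98%.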

Additional observations from a re-analysis of the deposited data

Results flagged for a closer look

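In 84 groups of 4 arrays checked, 6 held an array whose gap to its nearest neighbour took up most of the group's range; chance alone flags about 1 group in 20. Sftpa1 1422334_a_at read 25743 in air saline replicate 3, where the other arrays read 22007 to 22368. Sftpa1 1429626_at read 4099 in air saline replicate 4, below the others at 4495 to 4539. Sftpb read 18747 in DE 2000 OVA replicate 3 against 12459 to 12982. The dim Sftpc probe set 1438290_x_at read 10.9 in DE 2000 saline replicate 3 against 62.4 to 75.5. Napsa read 4881 in DE 500 saline replicate 3 against 6646 to 6934, and Slc34a2 read 13035 in air saline replicate 1 against 14874 to 15225.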

How the results depend on the processing

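With either covariate fewer members were called for ovalbumin over the mean of the exposures: 4 with the 3′/5′ ratio and 3 with B1, against 9. Over all tested probe sets the calls went from 6284 to 1917 with the ratio and 557 with B1. B1 turned Abca3 1451731_at to 0.072 and Abca3 1425496_at to -0.32. In air the count of members was 1 with either covariate and 3 with no filter, against 5. Calls over all probe sets in air were 240 with the ratio, 28 with B1 and 1649 of 22626 with no filter, against 2004. Against 3 members called in DE 500, the count was 0 with either covariate and 0 when only the compared groups were fitted. It was 0 without the arrays apart in 3′/5′ ratio, 5 after quantile normalization and 5 with array weights. Calls over all probe sets there were 158 with the ratio, 48 with B1 and 253 with the compared groups only, against 1693. They were 94 without the arrays apart, 1941 after quantile normalization and 2766 with array weights. Without the arrays apart, 9 members were called in DE 2000, against 4. For DE 500 against air in saline 1 was called, against 0. Over all probe sets the calls went from 2454 to 4418 and from 1 to 1283 in these comparisons. B1 gave 2 members for DE 2000 against air in OVA, against 0, while calls over all probe sets went from 3 to 971. The causes were not tested.

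Leaving out single arrays gave 1 to 7 calls for ovalbumin in air, 0 to 5 in DE 500, 3 to 5 in DE 2000, 9 to 10 over the mean and 0 in the other comparisons. With the replicate block the counts were 5, 2, 4 and 9, and 0 in the exhaust and interaction comparisons; the replicate numbers pair nothing in the labels. Over all probe sets, calls ranged from 557 to 7041 for ovalbumin over the mean (6284), 28 to 3976 in air (2004), 48 to 3508 in DE 500 (1693) and 1258 to 4418 in DE 2000 (2454). For exhaust they ranged from 4 to 138 for DE 2000 in saline (20), 0 to 971 in OVA (3), 5 to 45 over both arms (12), 0 to 1283 for DE 500 in saline (1), 0 to 133 over both arms (0), and from 0 to 181 and 0 to 30 for the interactions with DE 2000 and DE 500 (0 each). Among single member values, 98 called ones lost the call in an alternative, of which the 2 Abca3 values changed sign, and 48 gained one. Median scaling moved the median of all probe sets for ovalbumin to -0.084.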
